A study of Mus musculus with 9 samples.

Results

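The regulatory landscape of Grem1 and Fmn1 was described from CUT&RUN, a method in which an antibody tethers micrococcal nuclease to a DNA-bound protein and the released fragments are sequenced. The antibodies recognised HOXA13 and HOXD13 (together HOX13), homeodomain transcription factors of the developing digits. The landscape comprised the bodies of both genes and 200 kb on either side, that is chr2:113127736-113958646 of mm10 (0.831 Mb). A peak interval was counted as part of it when a summit fell within these bounds. Intervals of different lists that shared at least 1 bp were merged into 1 site, which gave 50 sites in the landscape among 138528 in the genome.

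The 6 libraries used here came from wild-type (wt) embryos of strain B6CBAF1 at E12.5, with 3 HOXA13 and 3 HOXD13 libraries from distal forelimb cells. The labels give no treatment, and the methods of the study describe pools of cells from individual embryos. The reporting summary describes a separate pool of several embryos for each replicate. HOXD13 replicate 3 is labelled as a new analysis of an earlier library. The 3 lists of the mutant line II1TDOM 542, which carries an inserted enhancer copy on the same chromosome, were left out because they were mapped on a mutant genome in which positions beyond the insertion are renumbered. No library without a specific antibody was among the files, so every value is relative to the local background that the peak caller took from the same library. Peak lists hold no RNA values, and the tissue label could not be compared with marker genes.

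The lists held 23939 to 86941 intervals, and by the background recovered from the lists they rested on 36.9 to 59.8 M read ends (M for mega). HOXD13 replicates 1 and 3 had the shortest lists. Over the genome, both replicates 3 differed from the other libraries, and the reporting summary gives longer reads for them. In the presence of 20310 strong sites they deviated together (correlation across sites 0.348), whereas replicate 3 of an antibody and replicates 1 and 2 of the other deviated in opposite directions (-0.268 to -0.178). Whether read length had a part in this was not tested. Because of these deviations values are given per library, and some results are also given without a replicate 3 library.

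Grem1 encodes gremlin 1, a secreted antagonist of bone morphogenetic proteins (BMPs). In the limb bud it takes part in the feedback between the signalling centre at the posterior margin, which makes Sonic hedgehog, and the apical ectodermal ridge, which makes fibroblast growth factors. Fmn1 encodes formin 1, which acts on actin filaments. Elements that control Grem1 in the limb are known to lie within and around the large neighbouring gene Fmn1, so the introns of Fmn1 belong to the landscape of both genes.

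Fmn1 (ENSMUSG00000044042.18) lies on the plus strand at chr2:113327736-113716767, and its longest basic transcript has 19 exons. Grem1 (ENSMUSG00000074934.3) lies on the minus strand at chr2:113746164-113758646, has 2 exons, and ends 29.4 kb from the end of Fmn1, so that both genes point towards each other. Distances below are measured from the Grem1 gene start and are positive towards Fmn1. Before Fmn1 the landscape reached Tmco5b, a gene for a coiled-coil protein, and Ryr3, which encodes a ryanodine receptor. Beyond Grem1 it held Scg5, which encodes the secretory chaperone 7B2, and Arhgap11a.

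The sequences shown are 300 bases centred on the strongest summit of the 4 sites called in all 6 lists, and the 250 bases upstream of the RefSeq starts of Grem1 and of full-length Fmn1, because the results turn on which of them were called. All come from GRCm38, the assembly of mm10. The windows are given on the plus strand and the upstream sequences on the strand of the gene. Capitals mark matches to a HOX13 consensus spelled CCNATAAA, CTNATAAA, CCNGTAAA or CTNGTAAA on either strand. A match is a description of these letters only.
Fmn1 intron 14 site, chr2:113618933-113619232: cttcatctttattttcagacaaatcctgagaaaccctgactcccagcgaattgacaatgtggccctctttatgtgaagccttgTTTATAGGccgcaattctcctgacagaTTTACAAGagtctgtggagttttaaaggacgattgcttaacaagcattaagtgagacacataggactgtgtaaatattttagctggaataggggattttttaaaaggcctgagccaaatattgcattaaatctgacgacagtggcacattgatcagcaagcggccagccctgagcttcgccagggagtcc
Fmn1 intron 15 site, chr2:113674499-113674798: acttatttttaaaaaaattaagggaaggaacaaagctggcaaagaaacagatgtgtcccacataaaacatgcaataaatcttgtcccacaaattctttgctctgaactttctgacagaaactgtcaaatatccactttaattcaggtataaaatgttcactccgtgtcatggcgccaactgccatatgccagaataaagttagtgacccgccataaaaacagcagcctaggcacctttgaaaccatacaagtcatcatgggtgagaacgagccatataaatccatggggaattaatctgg
Site between Ryr3 and Tmco5b, chr2:113240842-113241141: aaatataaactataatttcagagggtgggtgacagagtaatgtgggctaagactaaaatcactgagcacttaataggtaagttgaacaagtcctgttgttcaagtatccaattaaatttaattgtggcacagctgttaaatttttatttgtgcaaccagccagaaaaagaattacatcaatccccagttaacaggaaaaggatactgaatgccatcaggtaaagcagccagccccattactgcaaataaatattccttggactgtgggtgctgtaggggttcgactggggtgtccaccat
Arhgap11a upstream site, chr2:113848856-113849155: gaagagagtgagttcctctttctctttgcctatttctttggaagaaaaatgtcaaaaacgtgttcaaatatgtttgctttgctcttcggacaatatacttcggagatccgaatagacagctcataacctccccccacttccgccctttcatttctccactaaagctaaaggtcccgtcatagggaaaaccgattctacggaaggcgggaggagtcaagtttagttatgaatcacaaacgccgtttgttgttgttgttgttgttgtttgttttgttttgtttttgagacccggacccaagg
Upstream of Grem1, chr2:113758649-113758898, minus strand: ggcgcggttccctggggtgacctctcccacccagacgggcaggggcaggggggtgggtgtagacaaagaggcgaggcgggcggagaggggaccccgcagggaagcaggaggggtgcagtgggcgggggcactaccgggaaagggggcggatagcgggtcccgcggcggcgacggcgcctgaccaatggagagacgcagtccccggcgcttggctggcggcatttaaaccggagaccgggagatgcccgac
Upstream of Fmn1, chr2:113327486-113327735, plus strand: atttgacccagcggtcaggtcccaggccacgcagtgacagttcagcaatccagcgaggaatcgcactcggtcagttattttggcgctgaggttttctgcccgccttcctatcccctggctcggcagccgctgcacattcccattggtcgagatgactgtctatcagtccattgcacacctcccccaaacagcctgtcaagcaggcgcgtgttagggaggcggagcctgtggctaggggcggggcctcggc

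The Grem1 promoter was called weakly and in few lists. A site of 561 bp covered the Grem1 start, with its summit 62 bp upstream, and was called in 2 of 6 lists. Fold enrichment, which sets the stacked reads at a summit against the local background, was 3.27 in HOXA13 replicate 1 and 3.22 in HOXD13 replicate 2, and the site was absent from the other 4 lists. These are the libraries with the longest lists. The pileups behind them were 22 read ends (95% Poisson interval 13.8 to 33.3) and 26 read ends (17.0 to 38.1). Such intervals cover counting error only, because read ends without molecular identifiers are not independent molecules. In those lists 62.7% and 51.1% of all intervals were higher.

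The Grem1 body held 3 further sites, and none was called in more than 3 lists. A site with its summit 879 bp from the start was called with a fold enrichment of 2.33 in HOXD13 replicate 2 alone, and another in an untranslated part of the gene, with its summit 9.13 kb from the start, with 2.65 in HOXA13 replicate 2 alone. The site at the 3′ end of Grem1 was called in 3 lists, with a fold enrichment of 4.78 in HOXA13 replicate 1, 4.62 in HOXA13 replicate 3 and 2.57 in HOXD13 replicate 2. It held 1 consensus match 34 bp from its summit. Between Grem1 and Fmn1 there was 1 site, 15.4 kb from the Grem1 start, called in HOXA13 replicate 1 alone with a fold enrichment of 2.61. From there to the Fmn1 introns 49.4 kb were without an interval in any list.

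The main Fmn1 promoter was called more often than that of Grem1. The merged site of 1015 bp covered the gene start, with its strongest summit 54 bp upstream. Its fold enrichment was 6.22, 3.81 and 2.95 in HOXA13 replicates 1, 2 and 3. In HOXD13 replicates 2 and 3 it was 6.76 and 4.45, and the site was absent from HOXD13 replicate 1. Main summits of the lists spread over 349 bp. The interval of HOXD13 replicate 3 ended at 113327694, before the start at 113327736, with its summit at 113327348. Values of both antibodies overlapped. In the GENCODE annotation another Fmn1 start, inside the gene at position 113441064, lay 89 bp from the edge of a site called in 3 lists with values of 3.62, 3.15 and 3.70 in HOXA13 replicates 1 and 2 and HOXD13 replicate 2. RefSeq has 1 start for Grem1 and 2 for Fmn1, of which the second lies elsewhere in the gene, with its upstream bases at chr2:113684840-113685089. None of these 3 promoters held a consensus match in 300 bases, where 10.2% of 32544 promoters of that length did. No match says only that these letters are not in the window.

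Fmn1 held most of the sites, and it takes up 46.8% of the length of the landscape. Of the 50 sites, 28 had their summit in the Fmn1 body, 8 lay before Fmn1, 10 beyond Grem1, 3 in Grem1 and 1 between both genes. Within Fmn1, 17 sites lay in the part nearer its 3′ end and Grem1, of which 5 were called in 5 or 6 lists. The part of equal length nearer its start held 11 sites, of which 1 was called in 5 lists. Of the 28 sites in Fmn1, 6 were called in 5 or 6 lists and 13 in a single list. Over all sites these shares were 16.9% and 50.6%. The counts are small, and the split of Fmn1 was not tested.

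**Figure D1:**
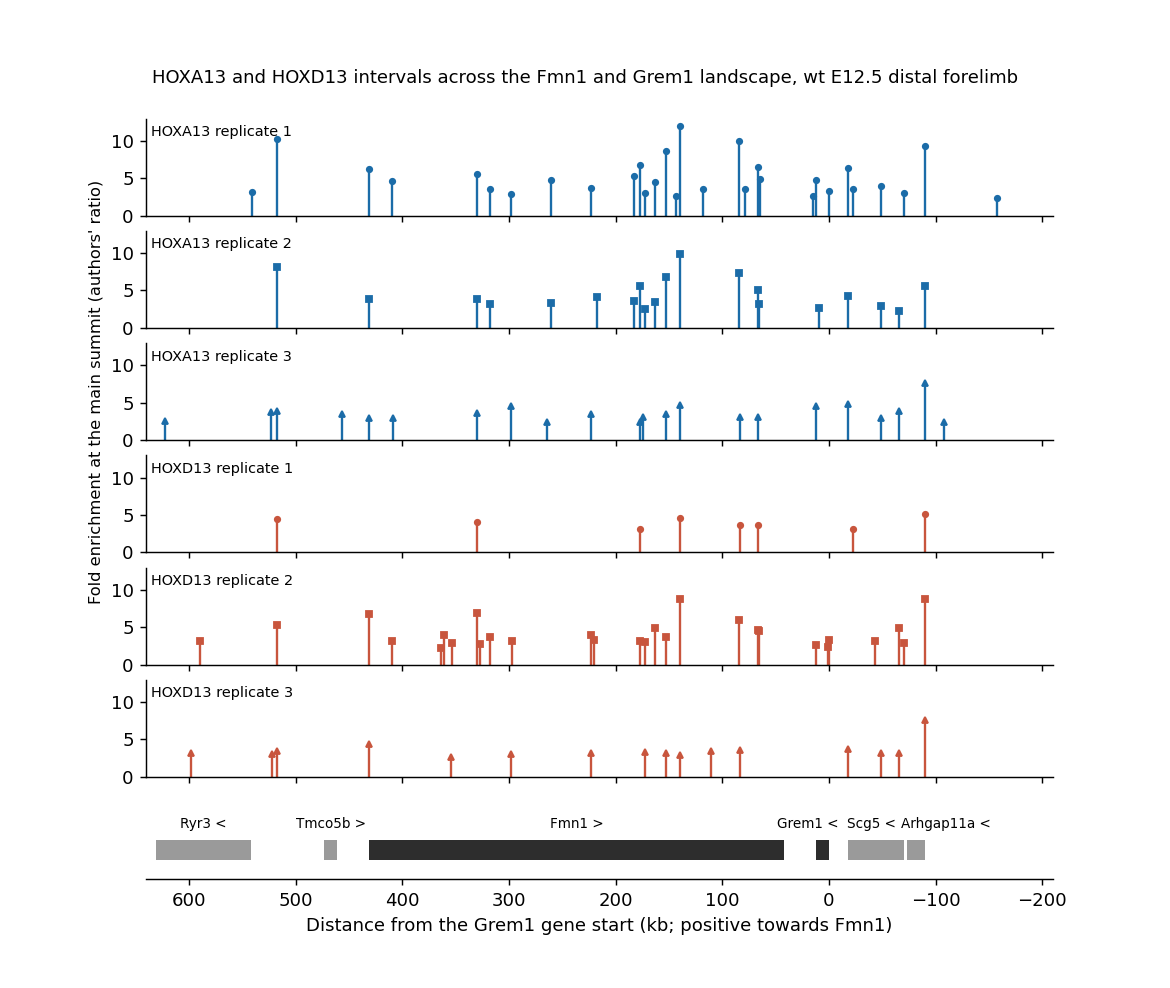
Fold enrichment at the main summit of each interval (vertical axes, authors' ratio) against distance from the Grem1 gene start in kb (horizontal axis), with 1 row per library (HOXA13 blue, HOXD13 red) and gene bodies below, arrows giving the direction of transcription. Tall intervals recur at 139.6 kb and 84.0 kb in Fmn1, at 517.7 kb before it and at -90.4 kb at Arhgap11a, whereas the Grem1 start at 0 has short intervals in 2 rows.

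The site in intron 14 of Fmn1, 139.6 kb from the Grem1 start at chr2:113618598-113619596, had the highest single value of fold enrichment in the landscape, in HOXA13 replicate 1, whereas its median over the 6 libraries (6.79) was below that of the Arhgap11a site (7.62). It was 12.0, 9.87 and 4.76 in HOXA13 replicates 1, 2 and 3, and 4.63, 8.82 and 2.90 in HOXD13 replicates 1, 2 and 3. HOXA13 replicates 1 and 2 and HOXD13 replicate 2 were high, the other 3 libraries were low, and the antibodies overlapped. The pileups were 224 read ends (95% Poisson interval 196 to 255) in HOXA13 replicate 1 and 20 (12.2 to 30.9) in HOXD13 replicate 3. The 6 main summits lay within 20 bp of each other, where the median range over all 13916 sites in 6 lists was 255 bp (quartiles 110 and 369). Its window held 2 consensus matches on the minus strand, at 36 and 63 bp from the strongest summit.

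A second site shared by all lists, in intron 15 of Fmn1 and 84.0 kb from the Grem1 start (chr2:113674444-113675390), was the nearest such site on the Fmn1 side. Its fold enrichment was 9.98, 7.30 and 3.12 in HOXA13 replicates 1, 2 and 3, and 3.71, 5.97 and 3.64 in HOXD13 replicates 1, 2 and 3. The order of libraries within HOXA13 was the same as at intron 14. Its summits spread over 319 bp, and its window held no consensus match and 6 copies of the core ATAAA or GTAAA.

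The intergenic site between Ryr3 and Tmco5b, 517.7 kb from the Grem1 start (chr2:113240330-113241510), gave 10.2, 8.13 and 3.92 with HOXA13 and 4.51, 5.27 and 3.48 with HOXD13, each in the order of replicates 1, 2 and 3. HOXA13 replicates 1 and 2 were above all HOXD13 libraries there, and HOXA13 replicate 3 was not. Its summits lay within 73 bp of each other, and the window had no consensus match.

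On the other side of Grem1, the nearest site in all lists lay at -90.4 kb, at the start of Arhgap11a, with its summit 344 bp upstream (chr2:113848360-113849606). Fold enrichment was 9.37, 5.63 and 7.68 in HOXA13 replicates 1, 2 and 3, and 5.08, 8.78 and 7.56 in HOXD13 replicates 1, 2 and 3. Here replicate 3 was not the low library of either antibody. Within their own lists both replicates 3 placed this promoter high, with only 1.19% and 1.3% of intervals above it. The same libraries placed the intron 14 site with 15.3% and 79.5% of intervals above it.

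HOXA13 replicate 1 was the highest HOXA13 library at 4 of these 4 sites and replicate 3 the lowest at 3 of 4. Over all 13916 sites in 6 lists these orders held at 86.2% and 81.6%. HOXD13 replicate 2 was the highest HOXD13 library at 4 of 4 sites, against 81.4% of all sites. The differences between libraries of 1 antibody at the landscape sites thus followed an order found over the genome, and only Arhgap11a departed from it for HOXA13, where replicate 2 was lowest as at 16.8% of all sites.

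Against all sites called in 6 lists, the landscape sites stood on both sides of the median height. The median percentile of fold enrichment among the 13916 sites was 42.7 for the intergenic site, 68.6 for Fmn1 intron 14, 37.5 for Fmn1 intron 15 and 71.4 for Arhgap11a. The percentile of intron 14 ranged from 8.52 in HOXD13 replicate 3 to 84.2 in HOXA13 replicate 2, and that of Arhgap11a from 39.8 in HOXA13 replicate 2 to 96.6 in HOXD13 replicate 3.

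Besides the Fmn1 promoter, 4 sites were called in 5 lists, and all were in Fmn1 introns. In intron 2, 329.9 kb from the Grem1 start, values were 5.60, 3.81 and 3.61 with HOXA13 and 4.10 and 6.89 in HOXD13 replicates 1 and 2. In intron 8, at 177.4 kb, they were 6.80, 5.54 and 2.43 with HOXA13, and 3.12 and 3.11 in HOXD13 replicates 1 and 2. A consensus match lay 11 bp from the summit of the intron 8 site. HOXD13 replicate 3 was the list in which both were absent.

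The neighbour of the intron 14 site in the same intron, at 152.8 kb, gave 8.59, 6.82 and 3.49 with HOXA13 and 3.65 and 3.14 in HOXD13 replicates 2 and 3, and was absent from HOXD13 replicate 1. Its HOXA13 and HOXD13 values overlapped only through HOXA13 replicate 3. The site in intron 16, at 66.7 kb, gave 6.47, 5.12 and 3.08 with HOXA13 and 3.71 and 4.60 in HOXD13 replicates 1 and 2. It held a consensus match 123 bp from its summit and was absent from HOXD13 replicate 3.

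**Figure D2:**
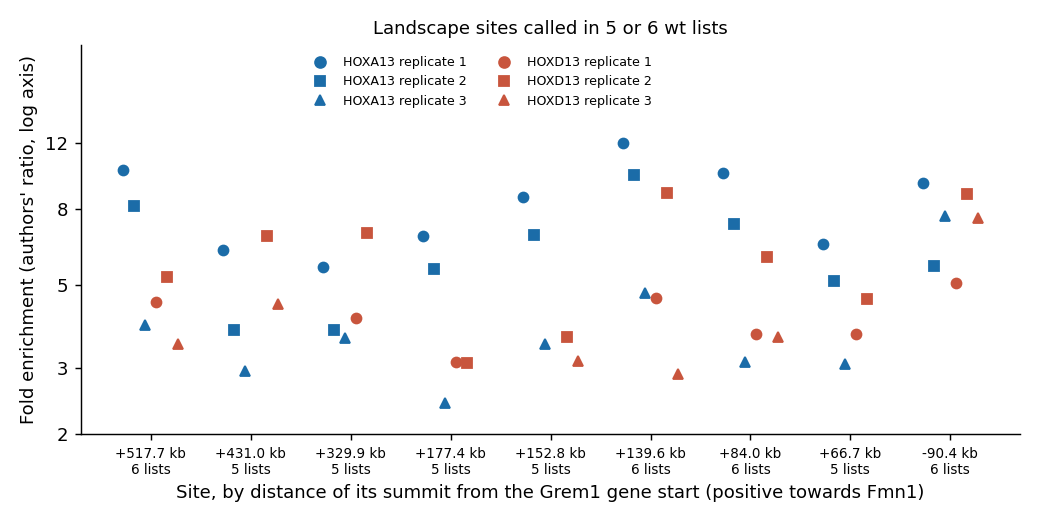
Fold enrichment (vertical log axis, authors' ratio) of each library at the 9 landscape sites called in 5 or 6 lists, ordered by distance from the Grem1 start in kb. Colours give the antibody and shapes the replicate, and a missing marker is a list without the site. Both antibodies overlap at each of the 4 sites with 6 markers, and replicate 3 (triangles) is low in HOXA13 except at Arhgap11a, at -90.4 kb.

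The other sites were called in 4 lists or fewer. The 6 sites in 4 lists ranged in fold enrichment from 2.28 to 6.33, with the highest value at the 3′ end of Scg5, 17.8 kb beyond the Grem1 start. That site gave 6.33, 4.30 and 4.82 with HOXA13 and 3.69 in HOXD13 replicate 3, and had a consensus match 12 bp from its summit. The 5 sites in 3 lists ranged from 2.57 to 4.90, and the 6 sites in 2 lists from 2.94 to 5.23. The 24 sites in a single list ranged from 2.24 to 4.11, with a median of 2.95 and a median pileup of 18.5 read ends, where the sites in all lists had a median of 5.80 and a median pileup of 42 read ends. Single-list sites were absent from other lists without a measured value, so weak signal below the caller's threshold there was not seen.

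Sharing between lists was close to that of the genome. In the landscape 4 of 50 sites (8%) were called in all 6 lists, against 10% of all sites, and 9 (18%) in 5 or 6 lists, against 16.9%. A single list held 24 sites (48%), against 50.6%. Without replicate 3 of both antibodies, 7 sites were called in the other 4 lists (14%, against 13.6%). The additional sites were those of Fmn1 introns 2, 8 and 16. A replicate 3 list alone or both of them held 9 sites found in no other list (18%, against 13.8%). The call of 4 sites depended on the rule for a shared interval. The count was 0 when the interval of every list had to span at least 50% of the merged site. Among the 10000 intervals of each list with the highest −log10 p it was 0. With a minimum fold enrichment of 5 it was 1, the Arhgap11a site.

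**Figure D3:**
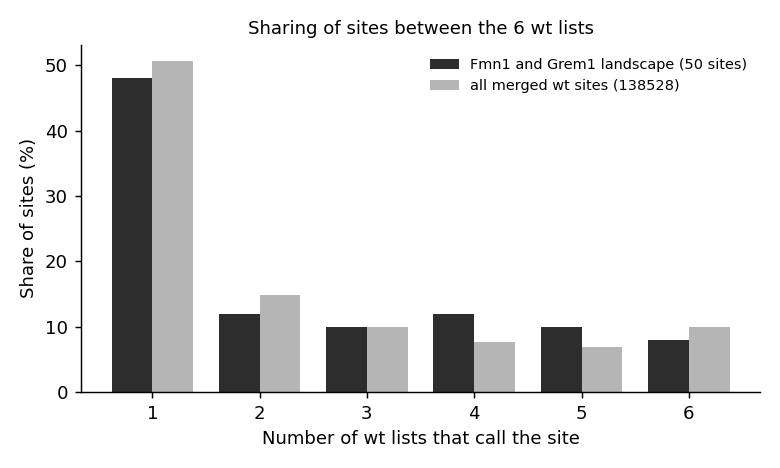
Share of sites in percent (vertical axis) by the number of wt lists that call them (horizontal axis), for the 50 landscape sites (black) and all 138528 merged sites (grey). In both sets the single-list class is largest, at 48% and 50.6%, and the 6-list class holds 8% and 10%.

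By antibody, 24 of the 50 sites were called with both antibodies (48%, against 42.4% of all sites), 15 with HOXA13 only (30%, against 38%) and 11 with HOXD13 only (22%, against 19.6%). No landscape site was called in all 3 HOXA13 lists and no HOXD13 list (1.32% of all sites), or in all 3 HOXD13 lists and no HOXA13 list (0.0318%). More HOXA13 than HOXD13 lists called 27 sites (54%, against 55.7%), and more HOXD13 than HOXA13 lists called 11 (22%, against 21.9%). All 11 sites seen with HOXD13 only came from a single list. Of the 15 sites seen with HOXA13 only, 13 came from a single list and 2, in Fmn1 introns 5 and 8, from 2 lists. Most sites seen with 1 antibody were single-list sites over the genome too. Of all sites, HOXD13 replicates 1, 2 and 3 alone held 0.648%, 15.5% and 2.97%, where 19.6% were HOXD13 only. HOXA13 replicates 1, 2 and 3 alone held 16.2%, 6.5% and 8.77%, where 38% were HOXA13 only. HOXD13 replicate 2 was the only list for 8 of the 50 sites (16%, against 15.5% of all sites), HOXA13 replicate 1 for 6 (12%, against 16.2%) and HOXD13 replicate 1 for 0 (against 0.648%).

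By annotation, 36 sites were intronic, 10 intergenic, 3 in untranslated regions and 1 in a noncoding exon. The share with a summit in a gene body was 80%, against 58.4% of all sites. Among sites in 5 or 6 lists it was 6 of 9 (66.7%, against 54.8% of all such sites). The landscape was chosen around 2 gene bodies, and Fmn1 takes up 46.8% of its length. A transcript start lay within 1 kb of 7 sites (14%, against 15.9%), and of 2 of the 9 sites in 5 or 6 lists (22.2%, against 28.6%). The windows of the Fmn1 and Grem1 promoter sites were rich in G and C, at 63.7% and 69.7%, where the median over the 50 sites was 43.2%.

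Whether the landscape holds more intervals than the genome was asked per library. It held 30, 20 and 24 intervals in HOXA13 replicates 1, 2 and 3, and 8, 28 and 19 in HOXD13 replicates 1, 2 and 3. The ratio of intervals per Mb in the landscape to that over autosomes and X was 1.06, 1.05, 1.29, 1.03, 1.12 and 1.56 in the same order, with a mean of 1.19 ± 0.205 (SD, n = 6). The values above 1.2 were those of both replicates 3. Leaving out HOXA13 replicate 3 gave a mean of 1.17, and leaving out HOXD13 replicate 3 gave 1.11. The ratio is given without a test, because a single stretch was set against the whole genome. It depended on the bounds and the strength of the intervals, with a mean of 1.5 for a flank of 100 kb, 0.907 for a flank of 500 kb and 0.891 at a minimum fold enrichment of 5. At that minimum HOXA13 replicates 1 and 2 and HOXD13 replicate 2 gave 1.21, 1.38 and 1.15. HOXA13 replicate 3 and HOXD13 replicates 1 and 3, with 1 landscape interval each, gave 0.423, 0.531 and 0.644.

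Within the landscape, the Fmn1 body held more intervals per Mb than the rest in all 6 libraries. The ratio was 1.70, 2.11 and 1.14 with HOXA13 and 1.89, 2.04 and 1.02 with HOXD13, with a mean of 1.65 ± 0.466 (SD, n = 6). Replicate 3 of both antibodies gave the lowest values, near equal density, and replicates 1 and 2 were all at 1.70 or above. With a flank of 100 kb the mean was 0.987. At a minimum fold enrichment of 5 it was 0.994, from ratios that rest on few intervals. HOXA13 replicates 1 and 2 and HOXD13 replicate 2 then gave 1.99, 2.84 and 1.14. HOXA13 replicate 3 and HOXD13 replicates 1 and 3 gave 0, each with 1 landscape interval left, outside Fmn1.

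**Figure D4:**
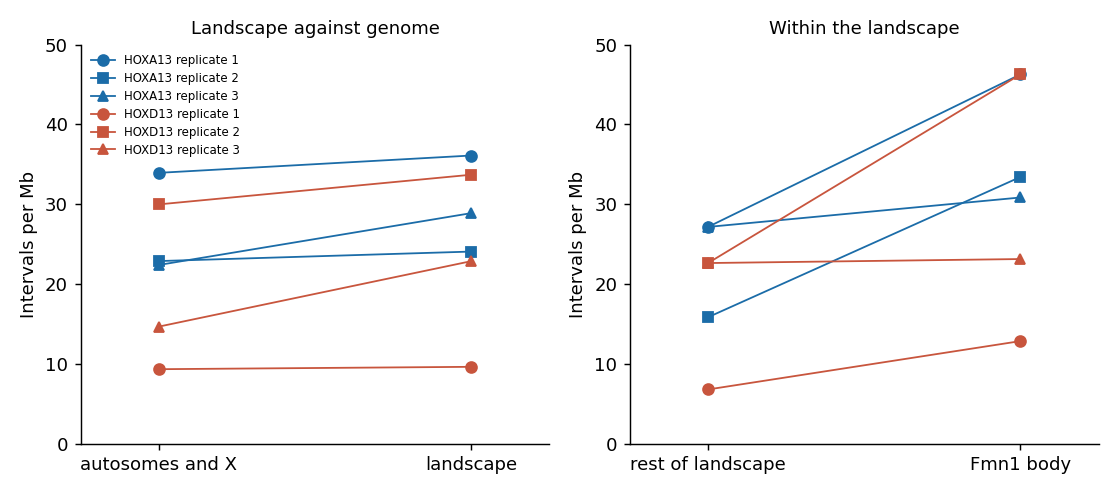
Intervals per Mb (vertical axes, from 0) in each library, with lines joining the genome to the landscape (left) and the rest of the landscape to the Fmn1 body (right); HOXA13 is blue and HOXD13 red. The lines on the right rise steeply in replicates 1 and 2 and little in replicate 3 of both antibodies, whose ratios are 1.14 and 1.02.

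The next comparison asked whether the antibodies differed in the share of their intervals that fell here. Per 1000 intervals of the library, HOXA13 replicates 1, 2 and 3 had 0.345, 0.341 and 0.418 in the landscape, and HOXD13 replicates 1, 2 and 3 had 0.334, 0.364 and 0.505. Each value had a wide exact binomial 95% interval, such as 0.144 to 0.658 for HOXD13 replicate 1, which had 8 intervals. The means were 0.368 ± 0.0435 for HOXA13 and 0.401 ± 0.0914 for HOXD13 (SD, n = 3 each), and the groups overlapped. The difference in log2 share, HOXA13 minus HOXD13, was -0.11, within the spread of the replicates (exact permutation test of the antibody labels, two-sided, p = 0.7, where 3 against 3 allow no less than 0.1). Without HOXD13 replicate 3 the difference was 0.07, and at a minimum fold enrichment of 5 it was 0.28, so its direction was not stable.

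The height of the 4 shared sites was compared between antibodies with limma on log2 fold enrichment, centred on each library's median and fitted over all 13916 sites called in 6 lists, so that 4 of the 50 landscape sites entered. Of these sites 1 (0.00719%) passed an adjusted p under 0.05 and 1886 (13.6%) an unadjusted p under 0.05. In the landscape 0 of 4 sites passed limma at either threshold. HOXA13 minus HOXD13 was 0.43 ± 0.27 (SE) at Fmn1 intron 14, with a limma adjusted p of 0.489. It was 0.34 ± 0.23 at the intergenic site (limma adjusted p = 0.528), 0.18 ± 0.24 at Fmn1 intron 15 (limma adjusted p = 0.767) and -0.23 ± 0.27 at Arhgap11a (limma adjusted p = 0.729). Fmn1 introns 14 and 15 and the intergenic site had higher centred means with HOXA13 and Arhgap11a with HOXD13, and no difference reached 2 SE. A p that misses the threshold does not show equal heights.

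Of the fits that leave out 1 library, the fit without HOXA13 replicate 3 changed the genome count, to 294 sites, and the others gave 0. The landscape differences without HOXA13 replicate 3 were 0.60 at intron 14, 0.51 at the intergenic site, 0.43 at intron 15 and -0.49 at Arhgap11a, with limma adjusted p values between 0.202 and 0.267, and 2 of the 4 sites were under an unadjusted p of 0.05, as were 22.4% of all sites in that fit. Omission of the other libraries moved the differences in both directions. Intron 14 rose to 0.66 without HOXD13 replicate 2, and the intergenic site fell to 0.28. In that fit 1 of the 4 sites, intron 14, was under an unadjusted limma p of 0.05. Leaving out HOXD13 replicate 1 put the intergenic site at 0.43 and Arhgap11a at -0.39, both further from 0, and intron 15 at 0.14. Smaller differences were also seen in the remaining fits. Without HOXD13 replicate 3 intron 14 was at 0.18 and Arhgap11a at -0.05, without HOXA13 replicate 2 Arhgap11a was at -0.01 and intron 15 at 0.07, and without HOXA13 replicate 1 intron 15 was at 0.04. Over the 6 omissions intron 14 ranged from 0.18 to 0.66, the intergenic site from 0.24 to 0.51, intron 15 from 0.04 to 0.43 and Arhgap11a from -0.49 to -0.01. Without centring, the median difference over all sites was 0.31, and Arhgap11a changed sign to 0.09. Fold enrichments of the antibodies were without overlap at 0 of the 4 sites, against 11% of all sites in 6 lists, and after centring at 0 of 4, against 19.7%.

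With the replicate number as a block, limma passed 420 sites (3.02%) over the genome and none in the landscape. The numbers came from the titles, and the correlations of replicates 1 and 2 did not favour this pairing. The blocked error at Fmn1 intron 14 was 0.20, with a limma adjusted p of 0.230 and an unadjusted limma p of 0.045, and 1 of the 4 sites was under an unadjusted p of 0.05, as were 20.8% of all sites in that fit. Paired by number, the log2 share of intervals in the landscape differed by 0.05, -0.10 and -0.27 in replicates 1, 2 and 3 (exact sign-flip permutation p = 0.5, smallest possible 0.25).

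The HOX13 consensus was then counted at the summits. In the 50 bases around the main summit a match was present at 5 of 30 intervals in HOXA13 replicate 1, 2 of 24 in HOXA13 replicate 3 and 1 of 8 in HOXD13 replicate 1. It was present at 0 of 20 in HOXA13 replicate 2, 0 of 28 in HOXD13 replicate 2 and 0 of 19 in HOXD13 replicate 3, counts of 0 that allow shares of up to 15.0%, 10.7% and 15.8% when the limit is set at 3 counts (exact binomial 95% limits are 16.8%, 12.3% and 17.6%). The mean was 6.25% ± 7.34 (SD, n = 6) in the landscape and 10.2% ± 2.1 (SD, n = 6) over all intervals, and the landscape libraries spread on both sides of the latter. These few intervals could not show a difference of that size.

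In 300 bases around the strongest summit of each site, 13 of 50 sites (26.0%) held a match, against 28.5% of all sites. In windows moved 1000 bases to the right the shares were 20% and 14%. By sharing, 3 of 9 landscape sites in 5 or 6 lists held a match (39.4% of all such sites), among them 1 of the 4 in 6 lists (40.4%), 5 of 17 in 2 to 4 lists (33.8%) and 5 of 24 in 1 list (21.5%). The core ATAAA or GTAAA, which the consensus contains, was present in 40 of 50 windows (80%, against 76.6%).

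Along Fmn1, 8 of 17 sites held a match in the part nearer its 3′ end. In the part nearer its start 2 of 11 did, where 28.5% of all sites held one. The part nearer the 3′ end also had 5 sites in 5 or 6 lists, against 1. Over all sites a match was present at 39.4% of sites in 5 or 6 lists and 21.5% in 1 list. Of the sites in 5 or 6 lists the 3 with a match were those of introns 8, 14 and 16, all in the part nearer the 3′ end. The matched letters, read on the consensus strand, were CTAGTAAA in intron 8, CTTGTAAA and CCTATAAA in intron 14, and CTCATAAA in intron 16. The Fmn1 promoter, the Grem1 promoter, Fmn1 intron 15, the intergenic site and Arhgap11a had none in their windows. The difference between both parts of Fmn1 was noticed in the data and was not tested.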

How the data were processed

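CUT&RUN peak lists of 6 wt libraries were analysed, 1 list per library, grouped by antibody from the titles. Per the study's methods, cutadapt removed adapters, reads were mapped on mm10 with bowtie2, alignments of low mapping quality were discarded with samtools, and peaks were called per sample with MACS2 without a control library. Per the reporting summary, Picard was named for duplicates, although the listed commands only mark them; duplicates that were kept raise pileups. The filter on mapping quality lowers signal in repeats.

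The authors deposited several values per peak. The deposited fold enrichment is the ratio that MACS2 computed for the authors, pileup over local background at the summit, with the same small constant added to both. The deposited −log10 values are a p-value, from a Poisson model of that pileup, and the q-value made from it. The deposited score is the −log10 q in whole numbers. Values belong to called peaks only.

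Rows that share both ends form 1 interval, with the row of highest −log10 p as main summit. Pileup and background were solved from fold enrichment and −log10 p, and at least 99.9% of pileups came out whole within 0.01 read ends. Depth was taken from the low end of the background. Gene annotation was GENCODE basic on GRCm38, sequence and promoters came from RefSeq (GRCm38.p6), and coordinates are 1-based. Intron numbers are those of the longest Fmn1 transcript.

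Tests were exact permutation tests over libraries and limma with Benjamini-Hochberg adjustment. On simulated heights at 13916 sites limma recovered 38% of 100 changes of 1 and 81% of 100 changes of 2 on the log2 scale, with 4 false calls. The simulation drew each library independently and raised HOXA13 only. Real libraries shared deviations, so these rates need not hold for the data. Replicates are separate libraries, described by the study as separate pools of several embryos. The labels do not say which embryos went into each, so p-values measure the spread between these libraries. Same-numbered libraries of both antibodies deviated together (correlations of 0.110, 0.143 and 0.348 over 20310 sites), and the numbers were taken to pair them from the titles, although HOXA13 replicate 1 with HOXD13 replicate 2 reached 0.219.

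Sites named in full were those in all 6 lists, within 1 kb of a Grem1 or Fmn1 start, and nearest to the Grem1 start on each side; sites in 5 lists and a few others were added after their values were seen. The members, gene list, consensus and alternatives were chosen with earlier results of these data known. Software was R 4.3.3 with limma 3.58.1, and Python 3.11.15 with scipy 1.17.1, pandas 2.3.3, numpy 2.4.6, matplotlib 3.10.9 and pysam 0.24.0.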

Additional observations from a re-analysis of the deposited data

How the results depend on the processing

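The ratio of landscape to genome density (1.19) became 0.891 at a minimum fold enrichment of 5, 0.823 among the top 10000, 1.5 with a flank of 100 kb and 0.907 with 500 kb. The ratio of the Fmn1 body to the rest (1.65) became 0.994 at that minimum, 0.987 with 100 kb and 2.15 with 500 kb. At that minimum HOXA13 replicate 3 and HOXD13 replicates 1 and 3 held 1 landscape interval each, so both means rest on few intervals. The antibody difference in log2 share (-0.11) turned to 0.28 at that minimum, 0.42 with a −log10 q of at least 5, 0.86 among the top 10000 and 0.10 with every summit row; leaving out 1 library gave -0.23 to 0.071, and 0.071 was without HOXD13 replicate 3. The cause was not tested. The 4 sites in all lists became 1 at that minimum, 1 with a −log10 q of at least 5 and 0 among the top 10000. They became 0 when the interval of every list had to span at least 50% of the merged site. With replicates 1 and 2 only, a setting chosen after seeing the data, there were 7. Leaving out 1 library gave 4 to 7 sites, with 7 without HOXD13 replicate 3 and 6 without HOXD13 replicate 1, as fewer lists must then agree.

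The consensus share at summits (6.25%) became 17.3% in 100 bases, 24.1% in 200 bases and 37.1% for the core alone, where all intervals gave 18.6%, 27.4% and 37.4%. The limma count over all sites (1) became 0 without centring, with quantile normalization, with recovered pileups and at that minimum in every list, 9 with −log10 p, 420 with the replicate block, and 0 to 294 when 1 library was left out, with 294 without HOXA13 replicate 3. In the landscape it was 0 of 4 under 11 alternatives and 0 of 1 at that minimum in every list, where only Arhgap11a could be fitted. With the replicate block the adjusted limma call of the 4 landscape sites did not change. The antibody difference in share is the same by construction when libraries are paired by number. Arhgap11a turned to 0.089 without centring. Depth of 36.9 to 59.8 M read ends and lists of called peaks limit what can be seen of weak sites, since a site missing from a list has no value there.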
